A study of Mus musculus with 6 samples.

Results

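The mouse mitochondrial genome carries 37 genes, and all of them are among the 54532 genes of the count table. They were taken by their mt- symbols on chromosome MT and comprise 13 protein genes, 2 rRNA genes and 22 tRNA genes. RNA came from the left ventricle of male mice 4 weeks after aortic banding (AB), an operation that narrows the aorta and overloads the heart, which was done at 8 to 10 weeks of age. The 3 HINT2-TG libraries (TG) are labelled with the genotype HINT2CTG-Myh6Cre, in which, by the methods, tamoxifen-activated Cre driven by the Myh6 promoter switches on a HINT2 transgene in cardiomyocytes. The 3 non-transgenic libraries (NTG) are labelled C57BL/6J, and of these groups the methods describe tamoxifen only for the TG mice, so transgene, Cre and tamoxifen cannot be told apart in the comparison. RNA was selected on poly-T beads and counted per gene, and the question here is how each mitochondrial gene differed between TG and NTG hearts.

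The mitochondrial genome is a small circle inside the organelle that makes core subunits of the respiratory complexes I, III, IV and of the ATP synthase, complex V, while all other subunits come from nuclear genes. It is copied into long RNAs that span many genes, and the tRNAs that lie between the messages mark where these RNAs are cut. The heart, which relies on oxidative phosphorylation, is rich in mitochondria and in their RNA. Pieces of this genome have also been inserted into nuclear chromosomes, and such copies can share reads with the genes they came from.

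In the table, 28 genes lie on the plus strand and 9 on the minus strand, namely mt-Nd6 and 8 tRNA genes. The genes are packed closely, and some neighbouring genes overlap. The longest overlap, of 43 bases, joins the genes of complex V, mt-Atp8 (MT:7766-7969) and mt-Atp6 (MT:7927-8607), and it is printed because reads that lie within it cannot be assigned to 1 of the genes. The capitals mark the first codon of mt-Atp6 and the stop codon of mt-Atp8. All positions are on GRCm38, and all sequences are those of the GENCODE M21 transcripts, from 5′ to 3′.
MT:7927-7969, plus strand: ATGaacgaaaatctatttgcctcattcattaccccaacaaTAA
The next longest overlap, of 14 bases, joins mt-Nd5 and mt-Nd6 on opposite strands, and mt-Nd4l and mt-Nd4 share 7 bases. The library steps named no strand marking and the strand setting of the counting is not given in the sources used here, so reads of mt-Nd6 and of the minus-strand tRNA genes cannot be told apart from antisense reads.

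The transcripts of the mitochondrial genes were aligned to all other annotated transcripts. A stretch of 4653 bases, MT:6390-11042, has near-identical copies (at least 98% identity over at least 100 bases) in 7 pseudogenes that lie in the same order on the minus strand of chr1:24611535-24616197. The pseudogenes Gm28661, Gm10925, Gm28437 and Gm10222 match mt-Co2, mt-Atp6, mt-Co3 and mt-Nd4l at 100% over 99.6%, 99.6%, 99.9% and 99% of the gene. Gm28439 matches the first 876 bases of mt-Nd4, Gm29216 the last 483 bases of mt-Co1 with the single substitution A1066T, and Gm28438 matches mt-Nd3 over 345 bases with the single substitution T3C (positions counted from 1 at the 5′ end of the gene, mitochondrial base first). The start of mt-Nd3 and of its copy shows the difference in capitals, and the start of mt-Co3 and of its copy shows that no base separates them.
mt-Nd3, MT:9459-9518, plus strand: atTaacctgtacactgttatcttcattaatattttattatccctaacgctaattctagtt
Gm28438, chr1:24613060-24613119, minus strand: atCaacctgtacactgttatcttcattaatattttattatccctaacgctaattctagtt
mt-Co3, MT:8607-8666, plus strand: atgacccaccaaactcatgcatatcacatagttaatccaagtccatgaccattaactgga
Gm28437, chr1:24613912-24613971, minus strand: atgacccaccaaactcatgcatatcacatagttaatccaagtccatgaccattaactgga
Of the 37 genes, 11 lie wholly within this stretch, namely the 6 protein genes mt-Co2, mt-Atp8, mt-Atp6, mt-Co3, mt-Nd3 and mt-Nd4l and 5 tRNA genes, and mt-Co1 and mt-Nd4 lie partly within it. No annotated transcript matched mt-Atp8 or the 5 tRNA genes at this threshold, and the genomic sequence between the pseudogenes was not used here. Copies elsewhere are more diverged. The closest covers mt-Co1, is called Gm13340, lies at chr2:22588103-22589647 and is 97.6% identical, and the start of both is printed with the differing bases in capitals.
mt-Co1, MT:5328-5387, plus strand: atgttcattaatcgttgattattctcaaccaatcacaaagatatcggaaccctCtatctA
Gm13340, chr2:22589588-22589647, minus strand: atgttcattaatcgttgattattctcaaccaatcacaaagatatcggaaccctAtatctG

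Total counts on genes ranged from 14863568 to 17581220 over the NTG libraries and from 14944465 to 17235802 over the TG libraries. On Hint2 itself, TG 1, TG 2 and TG 3 had 793, 828 and 859 counts, NTG 2 and NTG 3 had 545 and 559, and the library labelled NTG 1 had 12, or 0.819 CPM beside 28.9 and 32.3 CPM in the other NTG libraries. The label of this library is therefore in doubt. It is kept in NTG as labelled and enters every NTG mean and fold change below unless it is said to be left out. The calls that change without it are named for the mitochondrial genes only. Calls of single nuclear genes, of copies and of genes counted with their copies are given with it. Shares of the mitochondrial counts are given with it only. On the first principal component of all genes, which held 52.3% of the variance, the library labelled NTG 1 lay at -5.08, between the other NTG libraries (29.3 and 55.7) and the TG libraries (-36.5 to -10.7), nearest to TG 2. In a chi-square of the counts per gene, it was also closer to TG 2, TG 1 and TG 3 (17.95, 22.02 and 28.3) than to NTG 3 and NTG 2 (33.6 and 71.4). By the same measure TG 2 was closer to NTG 1 and NTG 3 (17.95 and 28.66) than to TG 1 and TG 3 (32.59 and 36.91). The measure therefore does not single out the library labelled NTG 1. Some sums of cell type markers also differed between the groups. The summed level of 7 cardiomyocyte markers was 14250 to 24120 CPM (TMM-normalized counts at a common library size) in NTG and 23170 to 29090 CPM in TG, that of 6 fibroblast markers was 3584 to 7106 and 2015 to 3173 CPM, and that of 5 erythrocyte markers was 1310 to 2245 and 762 to 908 CPM. The sum of 4 smooth muscle markers was 130 to 155 CPM in NTG and 202 to 225 CPM in TG. The cardiomyocyte sums overlapped, with the library labelled NTG 1 (24120 CPM) above TG 2 (23170 CPM). Macrophage and endothelial sums overlapped between the groups too (403 to 758 against 310 to 459 CPM, and 1305 to 1485 against 1335 to 1491 CPM). The 3 atrial markers, which a left ventricle should nearly lack, summed to 67.5, 2.18 and 2.20 CPM in NTG 1, NTG 2 and NTG 3 and to 4.54, 29.2 and 167 CPM in TG 1, TG 2 and TG 3. All markers of these lists were found. Fewer cells of a type and less RNA per cell cannot be told apart in such bulk samples, and the part of these differences in the values below was not tested. The methods give 3 mice per group, while the labels do not tie a library to a mouse, and p-values measure the spread between these libraries.

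Mitochondrial transcripts took 19.2%, 13.4% and 14.3% of all counts in NTG 1, NTG 2 and NTG 3 and 21.5%, 16% and 20.3% in TG 1, TG 2 and TG 3. TG averaged 19.2% ± 2.91 (SD, n = 3) and NTG 15.6% ± 3.10 (SD, n = 3), but the groups overlapped, since the library labelled NTG 1 lay above TG 2. The difference between the means was 3.62 percentage points with it and 5.39 without it. Of the 10 most counted genes in a library, 6 or 7 were mitochondrial, and mt-Co1 came first in 6 of 6 libraries. Within the mitochondrial counts, complex IV genes held 42.7% ± 2.79 in NTG and 42% ± 0.738 in TG, complex I genes 37.6% ± 1.76 and 37.6% ± 0.132, and the complex III gene 15.2% ± 0.663 and 14.7% ± 0.453 (SD, n = 3). Both complex V genes together held only 0.153% ± 0.0530 in NTG and 0.518% ± 0.170 in TG, and no NTG library reached the TG range. These genes, mt-Co2 and mt-Co3 lie inside the copied stretch. The shares by complex are therefore shares of counted reads and depend on how reads that fit a copy were treated. The rRNA share was 4.39%, 3.45% and 3.89% in NTG and 4.53%, 4.77% and 5.23% in TG, again without overlap. tRNA genes held 0.357% ± 0.0155 and 0.324% ± 0.0358.

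**Figure D1:**
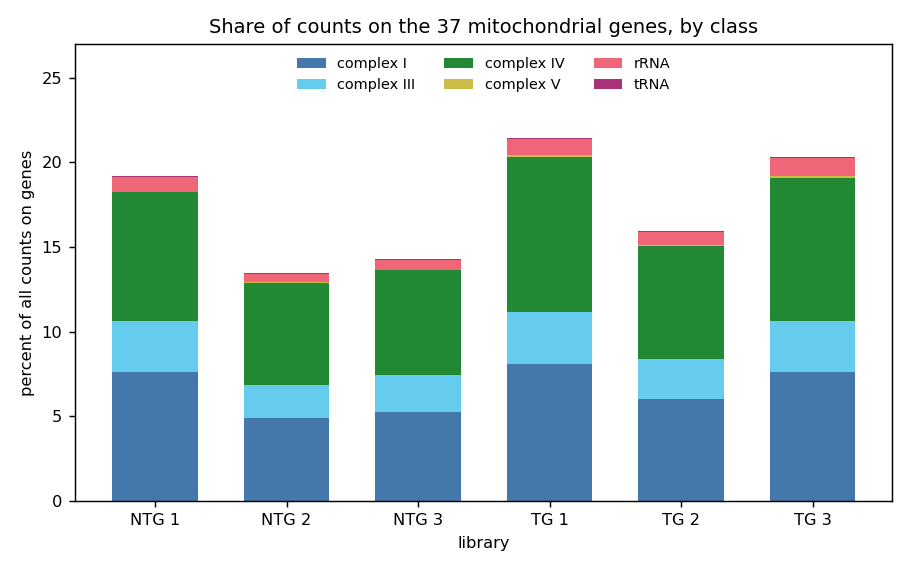
Stacked bars give the percent of all counts on genes in each of the 6 libraries that fell on mitochondrial genes of complexes I, III, IV and V, on rRNA genes and on tRNA genes. Bar heights run from 13.4% in NTG 2 to 21.5% in TG 1, and the library labelled NTG 1 reaches 19.2%, above TG 2 at 16%.

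Of the 37 genes, 31 had enough counts to be tested, all 13 protein genes, both rRNA genes and 16 tRNA genes. The quasi-likelihood test of edgeR was fitted to the 14774 genes of the table that passed the filter on low counts, and p was adjusted over all of them by Benjamini-Hochberg. A gene was called where the adjusted p was under 0.05 and the size of the log2 fold change above 0.5. By this rule edgeR called 0 of the 31 genes, and its share of calls over the whole table was 0%. At an unadjusted p under 0.05, 12 of the 31 were higher in TG, where 8.83% of all genes tested were, and 0 were lower, where 9.76% of all genes were. By DESeq2 with the same thresholds, 5 were called higher, mt-Co3, mt-Atp6, mt-Atp8, mt-Co2 and mt-Tl1, against 1.54% of all genes tested. The libraries did not overlap for 9 of the 31, all higher in TG (11.2% of all genes), and 0 were lower without overlap (12.3% of all genes). The fitted value was above 0 for 27 of the 31, with a median log2 fold change of 0.57 beside -0.0081 over all genes tested. Since the genes share precursors and libraries, they are not independent replicates of each other.

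Complex IV, cytochrome c oxidase, passes electrons to oxygen, and mt-Co1 encodes its catalytic core. This gene (ENSMUSG00000064351, MT:5328-6872) had 76400, 55630 and 60080 CPM in NTG 1, NTG 2 and NTG 3 and 96450, 63150 and 84460 CPM in TG 1, TG 2 and TG 3. The groups overlapped in a single pair of libraries, with NTG 1 above TG 2, and the log2 fold change of 0.35 ± 0.26 (SE) had an adjusted p of 0.486 by edgeR. It was 0.49 without the library labelled NTG 1, 0.50 without TG 2 and 0.20 without TG 1. mt-Co2 (ENSMUSG00000064354, MT:7013-7696), which encodes the subunit that takes up electrons from cytochrome c, was far less counted, with 349, 498 and 216 CPM in NTG and 1453, 641 and 769 CPM in TG. Every TG library lay above every NTG library, and TG 1 stood above the other TG libraries. Its log2 fold change was 1.43 ± 0.40, with an edgeR adjusted p of 0.196 and a DESeq2 adjusted p of 0.00375. The third core subunit is encoded by mt-Co3 (ENSMUSG00000064358, MT:8607-9390). This gene had 266, 249 and 227 CPM in NTG, within a narrow range, and 1239, 1280 and 2468 CPM in TG. No library of one group came near those of the other, and the TG mean was 6.73 times the NTG mean. The log2 fold change of mt-Co3 was 2.75 ± 0.29 and its unadjusted p of 1.4e-05 by edgeR ranked 1 among all genes tested, yet the adjusted p was 0.196, while DESeq2 gave an adjusted p of 3.3e-22. With the library labelled NTG 1, TG 2 or TG 3 left out, mt-Co3 was called by edgeR (adjusted p = 0.0197, 0.0480 and 0.0187), and with NTG 2, NTG 3 or TG 1 left out it was not (adjusted p = 0.372, 0.395 and 0.134).

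Complex V makes ATP, and its mitochondrial genes encode subunits of the proton channel. mt-Atp6 (ENSMUSG00000064357) had 331, 245 and 129 CPM in NTG and 739, 935 and 1328 CPM in TG, without overlap. Its log2 fold change was 2.09 ± 0.37, with an adjusted p of 0.196 by edgeR and of 2.8e-07 by DESeq2. mt-Atp8 (ENSMUSG00000064356) had only 19, 19 and 14 raw counts in NTG and 97, 64 and 71 in TG, which is 1.3, 1.01 and 0.810 CPM against 7.0, 3.64 and 4.38 CPM. The groups were again separate, at the lowest level of any protein gene. Its log2 fold change of 2.26 ± 0.34 had an adjusted p of 0.196 by edgeR and of 2.3e-05 by DESeq2. Of its 204 bases, 43 are shared with mt-Atp6. Without the library labelled NTG 1, edgeR called mt-Atp6 (2.42, adjusted p = 0.0313) and mt-Atp8 (2.44, adjusted p = 0.0221), and with any other library left out it called neither.

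Complex I, NADH dehydrogenase, is where electrons of NADH enter the chain, and the 7 mitochondrial genes encode core subunits of its membrane arm. 5 of them were strongly counted. mt-Nd1 had 23440, 13970 and 16060 CPM in NTG and 25010, 17440 and 23400 CPM in TG, and mt-Nd2 had 16310, 10000 and 10850 CPM and 16600, 12190 and 16900 CPM. The values of mt-Nd4 were 13110, 8278 and 8843 CPM in NTG and 15660, 11210 and 15090 CPM in TG. mt-Nd5 had 19030, 10530 and 12050 CPM against 23620, 14400 and 19020 CPM, and mt-Nd6, the only protein gene on the minus strand, had 5055, 2951 and 2880 CPM against 5717, 3253 and 4363 CPM. In each of these genes NTG 2 and NTG 3 lay below all TG libraries, and the library labelled NTG 1 lay above TG 2. Their log2 fold changes ran from 0.29 for mt-Nd6 to 0.47 for mt-Nd4, and none of the 5 passed edgeR's test (adjusted p = 0.332 to 0.606). With 1 library left out, these values moved by over 1.5 times for all but mt-Nd4. They were highest without the library labelled NTG 1, from 0.55 for mt-Nd1 and mt-Nd2 to 0.75 for mt-Nd5, and lowest without NTG 2 for mt-Nd1 (0.15), mt-Nd2 (0.16) and mt-Nd4 (0.35) and without TG 1 for mt-Nd5 (0.27) and mt-Nd6 (0.068).

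The short complex I genes mt-Nd4l and mt-Nd3 parted from the rest. mt-Nd4l (ENSMUSG00000065947, MT:9877-10173) had 114, 48.6 and 89.96 CPM in NTG and 618, 183 and 182 CPM in TG, so that the groups did not overlap and TG 1 stood far above TG 2 and TG 3. Its log2 fold change was 1.96 ± 0.57, with an adjusted p of 0.204 by edgeR and of 0.0888 by DESeq2. With the library labelled NTG 1 left out mt-Nd4l had a log2 fold change of 2.24, and without TG 1 it was 1.12, the lowest over the libraries left out. mt-Nd3 (ENSMUSG00000064360, MT:9459-9806) was the only protein gene fitted lower, with 147, 93.7 and 72.8 CPM in NTG and 48.5, 101 and 113 CPM in TG. Only TG 1 lay below the NTG range. The log2 fold change was -0.25 ± 0.37 (edgeR adjusted p = 0.740), and its sign turned without TG 1 (0.04) and without the library labelled NTG 1 (0.07).

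mt-Cytb encodes cytochrome b, the only mitochondrial subunit of complex III, which hands electrons on to cytochrome c. It was the second most counted mitochondrial gene in all 6 libraries, with 30800, 18210 and 21160 CPM in NTG and 32840, 23620 and 31040 CPM in TG. As in the abundant complex I genes, only NTG 1 overlapped with the TG libraries, and the log2 fold change of 0.32 ± 0.26 did not pass edgeR's test (adjusted p = 0.527). It was 0.57 without the library labelled NTG 1 and 0.17 without NTG 2.

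The rRNA genes encode the RNA of the small (mt-Rnr1) and large (mt-Rnr2) subunit of the mitochondrial ribosome. mt-Rnr1 (MT:70-1024) had 1896, 971 and 1111 CPM in NTG and 2396, 1650 and 2859 CPM in TG, and mt-Rnr2 (MT:1094-2675) had 6654, 3353 and 4272 CPM and 8079, 5805 and 8171 CPM. In both genes NTG 1 lay above TG 2 and all other pairs of libraries were in order. The log2 fold changes were 0.80 ± 0.30 (edgeR adjusted p = 0.230) and 0.63 ± 0.28 (edgeR adjusted p = 0.277). Without the library labelled NTG 1 they were 1.14, called by edgeR at an adjusted p of 0.0398, and 0.95, not called (adjusted p = 0.0538). The median of the 2 genes, 0.71, lay above that of the 13 protein genes, 0.45. No transcript of a nuclear copy matched either gene at the near-identity threshold.

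Among the 15 protein and rRNA genes, the libraries overlapped for 10. In 9 of these the only NTG library above any TG library was the one labelled NTG 1, and the exception was mt-Nd3. Without the library labelled NTG 1, the median log2 fold change of the 13 protein genes was 0.71, and 20 of the 31 genes were at an unadjusted p under 0.05 by edgeR, all higher in TG, where 13.7% of all genes tested in that fit were. edgeR then called 7 of the 31, mt-Atp6, mt-Atp8, mt-Co3, mt-Rnr1, mt-Te, mt-Tl1 and mt-Tq, all higher, beside 2.67% of all genes, since calls rose across the whole table from 0 to 836. With TG 2 or TG 3 left out edgeR called 1, mt-Co3, and with any of the other 3 libraries left out it called 0.

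Levels of different genes were set side by side per kb of gene length, and mt-Co1 was highest, with means of 41450 CPM per kb in NTG and 52660 in TG. mt-Cytb followed with 20450 and 25500, mt-Nd1 with 18620 and 22930, and mt-Nd2 with 11930 and 14670. mt-Nd5, mt-Nd4 and mt-Nd6 lay close together at 7605, 7312 and 6992 CPM per kb in NTG and 10420, 10150 and 8563 in TG, closer than the spread between libraries. The 6 protein genes inside the copied stretch were listed at lower values, but length alone does not make these comparable with the genes outside it. Between 12.05% and 50.8% of the counts on mt-Co3, mt-Atp6 or mt-Co2 and its copy fell on the copy, and how many reads that fit both were dropped is unknown. mt-Co2, mt-Atp6, mt-Co3, mt-Nd3 and mt-Nd4l lay at 518, 345, 315, 300 and 283 CPM per kb in NTG, and mt-Atp8 at 5.09. In TG these genes lay at 1395, 1469, 2121, 252, 1104 and 24.5 CPM per kb, so that their order changed. The order of the 7 abundant protein genes was the same in both group means.

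**Figure D2:**
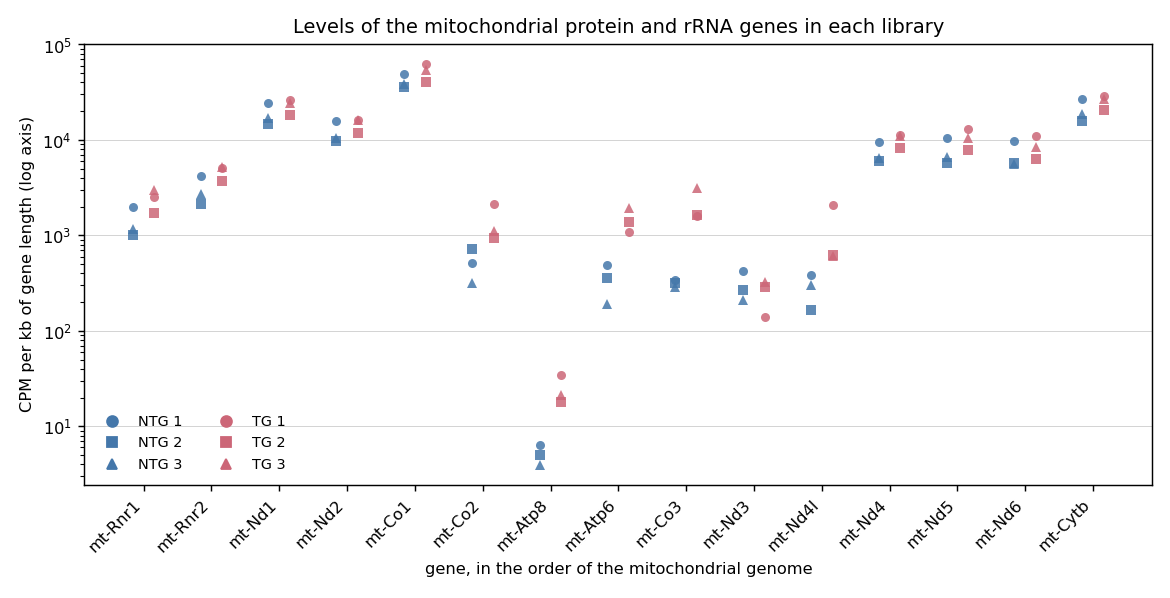
Points give the level of the 15 protein and rRNA genes in CPM per kb of gene length on a log axis, with 1 symbol per library, NTG in blue and TG in red, and genes in genome order. The NTG means run from 5.09 for mt-Atp8 to 41450 for mt-Co1, and the 6 genes from mt-Co2 to mt-Nd4l form the low middle of the plot.

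Ordered along the genome, the fitted differences were described by whether a gene lies in the copied stretch. The 6 protein genes inside it had a median log2 fold change of 2.03 and ranged from -0.25 to 2.75, and 5 of them were at an unadjusted p under 0.05 by edgeR. mt-Co1 and mt-Nd4, which lie partly inside, had 0.35 and 0.47. The 5 protein genes outside it, mt-Nd1, mt-Nd2, mt-Nd5, mt-Nd6 and mt-Cytb, ranged from 0.29 to 0.45 with a median of 0.30, and 0 were at an unadjusted p under 0.05. Over all genes tested 8.83% were higher and 9.76% lower at this threshold, and for 5 genes a count of 0 lies close to that share. With rRNA and tRNA genes included, 7 of the 21 genes tested outside and 5 of the 8 tested inside were at this threshold, all higher. The protein genes inside are also the least counted ones. How reads that fit both a gene and its copy were counted is not given in the sources used here, and the part of the copies in these differences was not tested with reads.

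**Figure D3:**
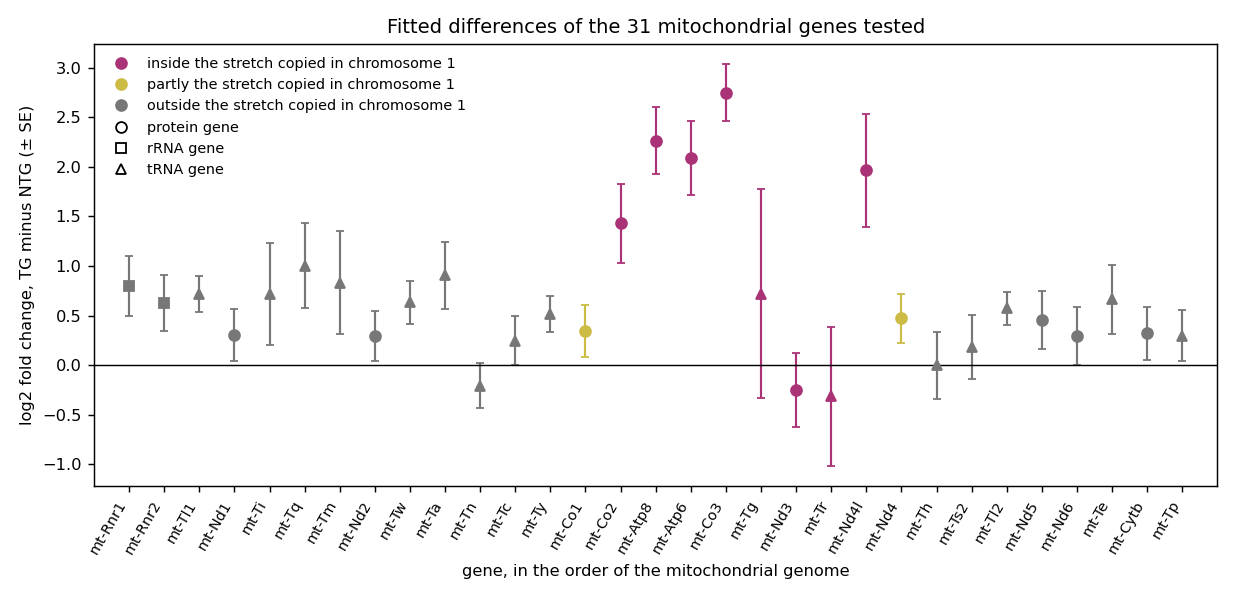
Points give the log2 fold change (TG minus NTG) of the 31 genes tested with its standard error, in genome order, coloured by whether the gene lies inside, partly inside or outside the stretch copied in chromosome 1, with symbols for protein, rRNA and tRNA genes. The values inside the stretch reach from -0.31 for mt-Tr to 2.75 for mt-Co3, and those outside it from -0.21 for mt-Tn to 1.0 for mt-Tq. The protein genes outside it lie between 0.29 and 0.45.

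The pseudogenes themselves had counts. Gm10925, the copy of mt-Atp6, had 3649, 4747 and 2311 counts in NTG and 4611, 9071 and 10215 in TG, about as many in NTG as the gene. Gm28437, the copy of mt-Co3, had 2598, 3374 and 3775 counts in NTG and 3813, 3553 and 5476 in TG. The log2 fold changes of the 7 near-identical copies were 0.35 for Gm29216, 1.10 for Gm28661, 1.22 for Gm10925, 0.50 for Gm28437, 1.71 for Gm28438, 1.36 for Gm10222 and 0.83 for Gm28439. By DESeq2, Gm28661, Gm10925, Gm10222 and Gm28439 were called higher in TG (adjusted p = 0.000998, 0.00282, 6.6e-05 and 0.0012), beside 1.54% of all genes tested, and none of the 7 was called by edgeR (adjusted p = 0.196 to 0.655). The more diverged Gm13340 had 780, 733 and 468 counts in NTG and 1648, 1708 and 2067 in TG, with a log2 fold change of 1.53 (adjusted p = 0.196 by edgeR and 6.1e-07 by DESeq2), where mt-Co1 itself had 0.35. The fitted values of all 7 near-identical copies were above 0. For Gm29216 and mt-Co1 they were 0.35 each at 2 decimals, and the differences between copies and their genes were not tested.

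The division of counts between gene and copy differed between libraries. For each count on Gm28437, mt-Co3 had 1.5, 1.39 and 1.04 counts in NTG and 4.51, 6.34 and 7.30 in TG, without overlap. mt-Atp6 had 1.33, 0.970 and 0.968 counts for each on Gm10925 in NTG and 2.22, 1.81 and 2.11 in TG, also without overlap. For mt-Co2 against Gm28661 the ratios were 1.44, 2.14 and 1.64 in NTG and 3.10, 1.79 and 1.63 in TG, and those of mt-Nd4l against Gm10222 were 3.07, 1.66 and 4.59 and 6.76, 3.08 and 2.60, with overlap in both. mt-Co1 and mt-Nd4, which reach beyond their copies, had 73.7 to 329 counts for each on the copy.

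mt-Nd3 stood apart by 1 library. It had 6.04, 4.15 and 5.33 counts for each on Gm28438 in NTG and 4.61 and 3.20 in TG 2 and TG 3, but 0.344 in TG 1, where 672 counts fell on the gene and 1955 on the copy. The sum of both was 2505, 2190 and 1494 counts in NTG and 2627, 2166 and 2407 in TG, and TG 1 had the highest sum. The tRNA genes on both sides of mt-Nd3 were low in the same library. mt-Tg had 31, 33 and 10 counts in NTG and 0, 85 and 38 in TG, and mt-Tr had 41, 37 and 34 and 3, 29 and 56. These 3 neighbours were the only genes among the 31 tested that were lowest in TG 1.

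Where each gene was counted together with its copy, the log2 fold changes were 2.14 for mt-Co3, 1.83 for mt-Nd4l, 1.74 for mt-Atp6, 1.32 for mt-Co2 and 0.30 for mt-Nd3. Such a sum takes out how counted reads were divided between gene and copy. It does not restore reads dropped because they fit both, and their part was not tested. This count of both together was added after the values had been seen. The sums of mt-Co3 and Gm28437 were 6488, 8061 and 7695 counts in NTG and 20998, 26075 and 45456 in TG, and those of mt-Atp6 and Gm10925 were 8493, 9351 and 4547 and 14853, 25515 and 31732, so that the groups remained separate. None of the 5 sums was called by edgeR (adjusted p = 0.196 to 0.558).

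**Figure D4:**
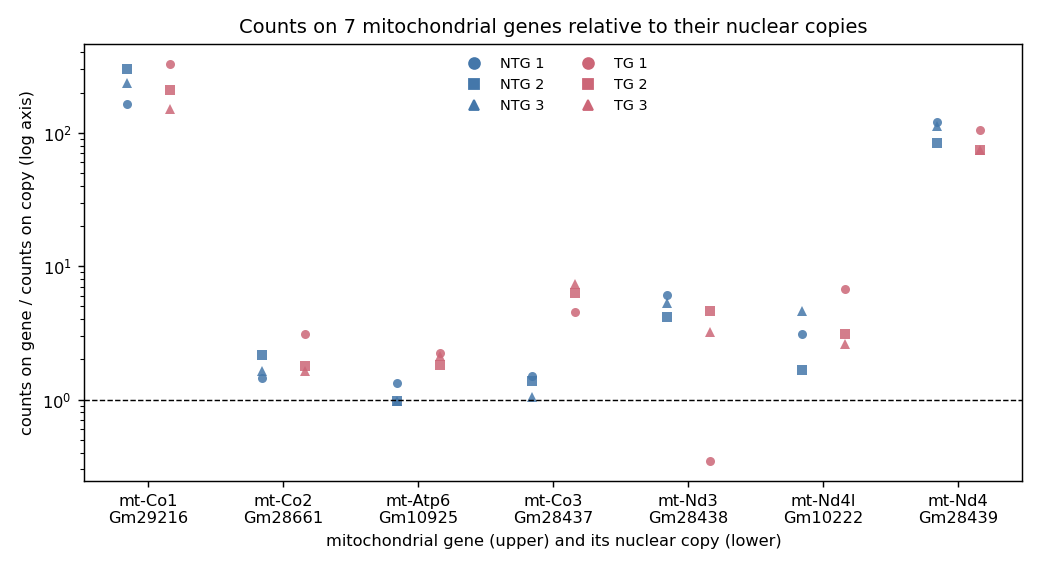
Points give the ratio of counts on 7 mitochondrial genes to counts on their near-identical nuclear copy in each library on a log axis, NTG in blue and TG in red, with a dashed line at equal counts. The ratios of mt-Co3 lie at 1.04 to 1.5 in NTG and 4.51 to 7.30 in TG, while mt-Nd3 falls below the line in TG 1 alone (0.344).

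The composition of the counts on mitochondrial messages, which does not depend on library scaling, was compared as well. Among the counts on the 13 protein genes, mt-Co1 held 44.2% ± 2.61 in NTG and 42.9% ± 0.785 in TG, mt-Cytb 15.9% ± 0.768 and 15.5% ± 0.502, and mt-Nd1 12.1% ± 0.536 and 11.6% ± 0.221 (SD, n = 3). The share of mt-Co3 was 0.143%, 0.206% and 0.171% in NTG and 0.563%, 0.863% and 1.24% in TG. The groups were also separate for mt-Atp6 (0.159% against 0.544%), mt-Atp8 (0.000715% against 0.00261%), mt-Nd4l (0.0565% against 0.165%) and mt-Nd4 (6.87% against 7.42%). In an exact two-sided permutation test over libraries, each of these 5 genes had p = 0.1, the smallest that 3 against 3 allows, or 0.26 after adjustment over the 13 genes, so the design cannot reach significance. The other 8 genes had exact p = 0.2 to 0.7. mt-Co3, mt-Atp6, mt-Atp8 and mt-Nd4l lie inside the copied stretch and mt-Nd4 lies partly inside it. Their shares therefore also depend on how reads that fit a copy were counted. With only protein genes that lack a near-identical copy as denominator, mt-Atp8 (higher in TG) and mt-Nd1 (lower) had exact p = 0.1, adjusted 0.3.

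tRNA genes are short, and the labels describe a selection of cDNA fragments longer than any of them. The most counted were mt-Tc, mt-Tp and mt-Tn, which carry cysteine, proline and asparagine and are all on the minus strand. mt-Tc had 226, 148 and 174 CPM in NTG and 246, 145 and 258 CPM in TG, and mt-Tp 154, 112 and 105 CPM and 184, 98.4 and 173 CPM. The values of mt-Tn were 127, 99.9 and 123 CPM in NTG and 99.2, 69.9 and 134 CPM in TG. In all 3 genes TG 2 was the lowest library, and their log2 fold changes of 0.24, 0.30 and -0.21 did not pass edgeR's test (adjusted p = 0.554 to 0.647). Without TG 2 they were 0.46, 0.53 and 0.00036, and the lowest values were 0.097 for mt-Tc (without TG 3), 0.13 for mt-Tp (without TG 1) and -0.47 for mt-Tn (without TG 3).

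Of the 16 tRNA genes tested, 13 were fitted higher in TG, with a median log2 fold change of 0.60, and 6 were at an unadjusted p under 0.05 by edgeR, all higher, where 8.83% of all genes tested were. These were mt-Tl1 (0.72), mt-Tl2 (0.57), mt-Tw (0.63), mt-Ty (0.52), mt-Ta (0.90) and mt-Tq (1.0), the tRNAs for leucine (both genes), tryptophan, tyrosine, alanine and glutamine. The adjusted p of these 6 genes was 0.196 to 0.259. mt-Tl1, which directly follows mt-Rnr2, had 32.2, 25.4 and 23.5 CPM in NTG and 55.1, 35.8 and 42.6 CPM in TG, without overlap, and it was the only tRNA gene called by DESeq2 (adjusted p = 0.0240). mt-Tw had 14.0, 8.34 and 12.2 CPM in NTG and 17.4, 14.8 and 21.3 CPM in TG, and mt-Tl2 8.81, 8.55 and 10.2 CPM and 16.6, 12.1 and 12.3 CPM. mt-Ta had 0.956, 0.850 and 1.16 CPM in NTG and 1.37, 1.76 and 2.41 CPM in TG, so that these 3 genes were also separate between the groups.

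The tRNA genes mt-Ty and mt-Tq overlapped in NTG 1 and TG 2 alone, with group means of 26.8 and 38.3 CPM for mt-Ty and of 1.89 and 3.76 CPM for mt-Tq. mt-Te, with means of 25.8 and 40.7 CPM and a log2 fold change of 0.66, did the same. With the library labelled NTG 1 left out, mt-Te had 1.14 and mt-Tq 1.56 on the log2 scale. The remaining tRNA genes tested were below 11 CPM in every library. Their log2 fold changes were 0.83 for mt-Tm, 0.71 for mt-Ti, 0.72 for mt-Tg, 0.18 for mt-Ts2, -0.003 for mt-Th and -0.31 for mt-Tr, and all overlapped between the groups. With 1 library left out, mt-Tm ran from 0.24 (without TG 3) to 1.41 (without the library labelled NTG 1) and mt-Ti from 0.34 (without NTG 3) to 1.40 (without the library labelled NTG 1). The sign of the other 4 turned with 1 library left out, over ranges of -0.29 (without TG 2) to 1.28 (without TG 1) for mt-Tg, -0.14 (without TG 1) to 0.47 for mt-Ts2, -0.45 to 0.22 (without TG 2) for mt-Th and -1.21 to 0.19 (without TG 1) for mt-Tr. The other 6 tRNA genes, mt-Tf, mt-Tv, mt-Ts1, mt-Td, mt-Tk and mt-Tt, had at most 4 counts in any library and were not tested, and mt-Tf had 0 in all 6. A count of 0 allows up to 3 counts per library.

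The nuclear genome encodes the other subunits of these complexes, and 78 genes listed for them were tested. The list includes Atpif1, which encodes an inhibitor of complex V and was the only gene fitted lower (-0.17). Their median log2 fold change was 0.42, 77 were fitted higher in TG, and 45 were at an unadjusted p under 0.05 by edgeR, all higher, beside 8.83% over all genes tested. 0 were called by edgeR and 22 were called higher by DESeq2, beside 1.54% of all genes. By complex, the nuclear and mitochondrial medians were 0.49 and 0.30 for complex I, 0.43 and 0.32 for complex III, 0.40 and 1.43 for complex IV and 0.37 and 2.18 for complex V. The mitochondrial genes outside the copied stretch thus had fitted values within the range of the nuclear subunits of the same complexes, which was 0.12 to 1.03 for complex I and 0.27 to 0.89 for complex III. The mitochondrial medians of complexes IV and V rest on genes inside the stretch. mt-Co1 of complex IV, which lies partly inside it, had 0.35. The nuclear subunits with the smallest p in each complex were Ndufs6 (1.03), Uqcr11 (0.89), Cox5b (0.58) and Atp5g3 (0.57), with an edgeR adjusted p of 0.196 to 0.204. Ndufs6, an accessory subunit of complex I, had 127, 83.4 and 97.5 CPM in NTG and 234, 181 and 217 CPM in TG, without overlap.

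**Figure D5:**
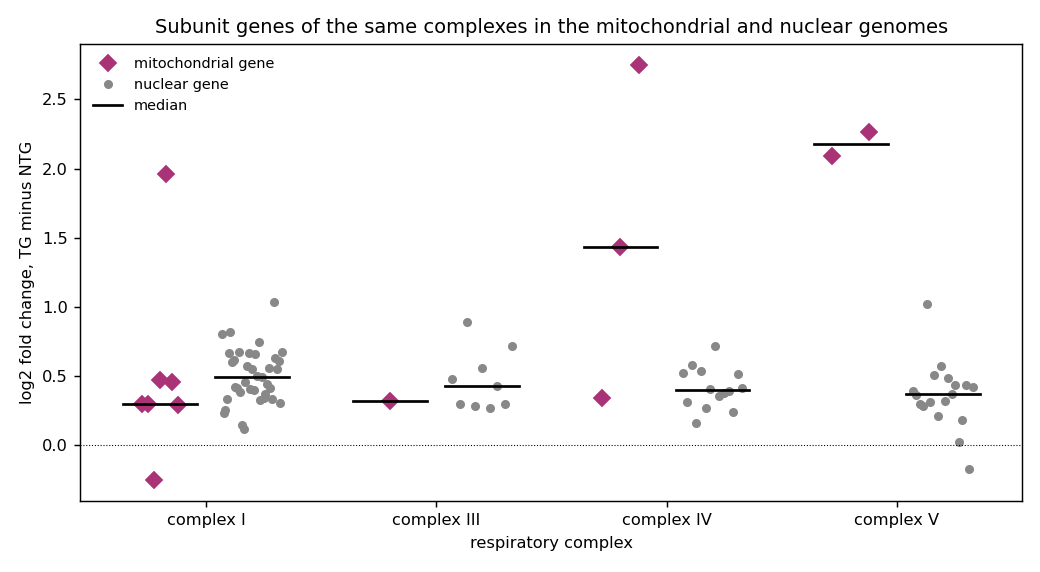
Diamonds give the log2 fold change of each mitochondrial protein gene and dots that of each nuclear subunit gene, by respiratory complex, with a bar at the median of each set. The nuclear medians lie between 0.37 and 0.49, and the mitochondrial medians run from 0.30 for complex I to 2.18 for complex V. Those of complexes IV and V rest on genes inside the copied stretch.

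Nuclear genes for the upkeep of mitochondrial RNA and DNA had a lower median than the subunits. Of 50 listed, 49 were tested, with a median log2 fold change of 0.18, 36 fitted higher and 13 lower, and 0 called by edgeR or DESeq2. The median was 0.052 without NTG 2 and 0.099 with scaling by library size alone. At an unadjusted p under 0.05 by edgeR, 5 of the 49 were higher, near the 8.83% over all genes tested, and 0 were lower. Polrmt, the RNA polymerase of the mitochondrial genome, had 27.6, 23.6 and 27.4 CPM in NTG and 28.1, 27.4 and 26.7 CPM in TG, a log2 fold change of 0.07 ± 0.10. Tfam, which packs the genome and starts its transcription, had 38.2, 33.0 and 34.0 CPM in NTG and 40.0, 37.8 and 41.5 CPM in TG, a log2 fold change of 0.18 ± 0.10. Lrpprc, which stabilizes mitochondrial messages, had a log2 fold change of 0.34 ± 0.17, and its partner Slirp, at 0.062 to 0.425 CPM, was not tested. The smallest p values of the list belonged to Hsd17b10 (0.45), a subunit of the enzyme that trims tRNA 5′ ends, Fastk (0.53), a regulator of mt-Nd6 RNA, and Ssbp1 (0.42), which binds single-stranded mitochondrial DNA. None of these genes passed edgeR's test (adjusted p = 0.196 to 0.750).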

How the data were processed

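The authors cleaned reads with in-house perl scripts, mapped them, predicted transcripts with StringTie, counted reads per gene with featureCounts and compared groups with DESeq2. The deposited values are raw read counts per gene, 1 column per library, without normalization or pooling, and 0 columns were unmatched. The submitters' processing notes name HISAT2 and GRCh38, while the table holds mouse genes at GRCm38 positions, which all 37 genes share with GENCODE M21. Strand setting and treatment of reads with several matches are not given in the sources used here. Precision is set by the total counts of each library and by n = 3.

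The fit across the whole table was made by edgeR 4.0.16 in R 4.3.3 (TMM, filterByExpr by group, robust quasi-likelihood fit, no covariate) with Benjamini-Hochberg adjustment over all genes tested. CPM per library are TMM-normalized, and SE is that of the log2 fold change. Transcripts were aligned with BLASTN of BLAST+ 2.17.0, and shares and exact permutation tests were computed in Python 3.11.15. Tests were run on simulated data first. All 37 genes are described, the protein and rRNA genes with every library, as are near-identical copies with at least 10 counts, the nuclear subunit with the smallest p per complex, and 3 machinery genes by p plus Tfam, Polrmt, Lrpprc and Slirp. The members and lists were chosen with earlier results of these data known. Alternatives were DESeq2 1.42.0, limma 3.58.1 (voom), RLE, upper quartile and library-size scaling, scaling without mitochondrial genes, other filters on low counts, protein-coding genes only, robust = FALSE, a replicate block, other denominators for shares, and each library left out. Other mice of the study were not analysed here.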

Additional observations from a re-analysis of the deposited data

How the results depend on the processing

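Over all genes edgeR called 0, and DESeq2 called 583, edgeR without a low-count filter 232 and edgeR with a replicate block 231, while leaving out 1 library gave 0 to 836 (836 without NTG 1, 7 without TG 2 and 1 without TG 3). Of the mitochondrial genes these called 5, 3, 3 and 0 to 7, and the number at an unadjusted p under 0.05 by edgeR was 7 to 20 with 1 library left out. Over all genes tested in these runs, that number ran from 1567 of 15001 (without NTG 2) to 4081 of 15136 (without NTG 1). mt-Co3, mt-Atp8 and mt-Tl1 were those called without the filter and with the block. Same-numbered libraries did not deviate together (correlations 0.08, 0.17 and -0.25), so the block is no pairing by design. The limits are the 3 libraries per group, the low counts of mt-Atp8 and most tRNA genes, and the unknown treatment of reads that fit a copy. Further limits are the label of NTG 1, which is in doubt, and the cell type marker sums that differed between the groups. Median fitted values kept their sign in every alternative run, at 0.27 to 0.71 for protein genes, 0.52 to 1.04 for rRNA genes and 0.31 to 0.56 for nuclear subunits with 1 library left out. The machinery median ran from 0.052 (without NTG 2) to 0.25. Library size alone moved the median of all genes to -0.09, and no scaling run moved it by 0.1. Signs turned for genes near 0 or with few counts. mt-Th was 0.0043 with DESeq2, 0.0031 with RLE scaling, 0.0013 with protein-coding genes only and -0.45 to 0.22 with 1 library left out. mt-Nd3 was 0.30 when counted with its copy and -0.48 to 0.072 with 1 library left out, and mt-Tg was -0.61 with limma-voom and -0.29 to 1.28. With 1 library left out, mt-Tr was -1.21 to 0.19, mt-Ts2 -0.14 to 0.47 and mt-Tn -0.47 to 0.00036. The cause was not tested.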
